A study of Mus musculus with 2 samples.

Results

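This is an account of 10 genes among 34714 in a table of gene expression: Cd80, Cd86, Icosl, Cd274, Pdcd1lg2, Cd276, Vsir, Tnfsf9, Cd83 and Cd48. They encode surface ligands with which an antigen-presenting cell raises or restrains T cell activation. They were taken by name as members of that functional class, by a rule with no threshold on their values. The choice was made with earlier results of these data known. All 10 were found in the table by symbol. The series compares bone marrow-derived macrophages of the mouse strain C57BL/6 in 2 RNA sequencing libraries, 1 per group. Marrow cells of both groups were grown in medium with macrophage colony-stimulating factor (murine, at 20 ng/mL). The anti-CD40 group was then exposed for 24 h to FGK45, a monoclonal antibody given to activate mouse CD40, and the control group received IgG. The labels do not say how many mice or cultures stand behind a library, nor the clone or isotype of the IgG. With 1 library per group, no difference has a replicate check and no p-value was computed.

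A T cell that meets its antigen needs a further signal through CD28, which binds CD80 and CD86 on the presenting cell. CTLA-4 binds the same pair of ligands and restrains the T cell. The other members of the B7 family act through separate receptors: ICOS ligand through ICOS, PD-L1 and PD-L2 through PD-1, while VISTA restrains T cells and the receptor of CD276 (B7-H3) is less well settled. The 4-1BB ligand belongs to the tumour necrosis factor superfamily, CD83 is a surface protein of mature dendritic cells, and CD48 is a SLAM family ligand of CD2 and CD244. Engagement of CD40 by T cells is a textbook route by which dendritic cells and B cells gain CD80 and CD86, mainly through NF-kB.

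Levels are FPKM, fragments scaled by transcript length and library size, as deposited by the authors. Differences are log2 ratios of FPKM + 1, anti-CD40 over IgG, which understate the difference of low genes, so the plain ratio of FPKM is given too. Of all genes, 9591 reached 1 FPKM in at least 1 library and were counted. Their median log2 ratio was 0.12 and their median FPKM ratio 1.11, so most counted genes lay slightly higher in the anti-CD40 library, and each gene is read against that shift. Steps sought in the deposited values correspond to about 6.16 gigabases of aligned sequence for anti-CD40 and 5.58 gigabases for IgG. This estimate rests on few genes, and for IgG the chosen step held 11 against 9 at an unrelated step. Approximate fragments per gene follow from these depths, and the 95% exact conditional binomial intervals quoted with ratios come from them and cover counting error only. Across all counted genes with an annotated length, 39.0% had such an interval wholly above 1 and 15.1% wholly below, so an interval that leaves out 1 is common in this comparison.

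Promoter sequences are shown for the CD28 and ICOS ligands Cd80 and Icosl and for Cd274, which lay higher together with anti-CD40, and for Pdcd1lg2, the low neighbour of Cd274. They are RefSeq sequences of GRCm38.p6, 5′ to 3′ on the gene's own strand, from 250 bases before to 50 bases after the annotated start. They lie at chr16:38458683-38458982, chr10:78069118-78069417, chr19:29367188-29367487 and chr19:29410669-29410968, each on the plus strand. Capitals mark matches to the motifs named below.
Cd80: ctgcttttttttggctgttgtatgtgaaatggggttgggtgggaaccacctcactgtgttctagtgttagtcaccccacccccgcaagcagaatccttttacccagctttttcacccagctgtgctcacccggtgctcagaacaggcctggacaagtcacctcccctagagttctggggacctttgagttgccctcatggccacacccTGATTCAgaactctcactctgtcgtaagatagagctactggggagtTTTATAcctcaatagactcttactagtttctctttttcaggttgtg
Icosl: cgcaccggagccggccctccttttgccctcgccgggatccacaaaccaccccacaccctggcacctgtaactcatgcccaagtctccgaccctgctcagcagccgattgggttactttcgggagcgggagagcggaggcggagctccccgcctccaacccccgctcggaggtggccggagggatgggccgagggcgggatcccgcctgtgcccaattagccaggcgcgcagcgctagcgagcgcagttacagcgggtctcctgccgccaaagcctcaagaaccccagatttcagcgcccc
Cd274: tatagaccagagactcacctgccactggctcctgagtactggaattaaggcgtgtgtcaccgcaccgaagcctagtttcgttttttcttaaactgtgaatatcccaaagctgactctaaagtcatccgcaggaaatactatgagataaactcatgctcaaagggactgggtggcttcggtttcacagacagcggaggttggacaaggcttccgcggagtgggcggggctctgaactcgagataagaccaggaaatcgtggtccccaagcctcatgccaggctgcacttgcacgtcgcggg
Pdcd1lg2: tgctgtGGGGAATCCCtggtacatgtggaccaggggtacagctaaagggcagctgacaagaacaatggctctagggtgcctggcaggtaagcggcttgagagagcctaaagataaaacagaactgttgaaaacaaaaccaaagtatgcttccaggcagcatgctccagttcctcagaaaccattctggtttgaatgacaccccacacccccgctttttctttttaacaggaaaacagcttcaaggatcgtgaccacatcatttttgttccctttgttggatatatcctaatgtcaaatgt

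Promoters were listed for 7 of the 10 genes. On both strands, 5 motifs were searched: the NF-kB consensus (matched by name), TGANTCA for AP-1, TTCNNNGAA for STAT factors, GAAA repeated after a gap of 2 bases for interferon regulatory factors and TATAAA. The Cd80 window held TGATTCA, which begins 42 bases before the start, and a TATAAA match on the minus strand just after the start. The Pdcd1lg2 window held GGGGAATCCC, which matches the NF-kB consensus on both strands and begins 244 bases before the start. No match lay in the windows of Icosl, Cd274, Cd276, Vsir or Cd48. Among 32851 promoters of the same length, 7.81% held the AP-1 letters, 4.51% the NF-kB consensus, 8.30% the STAT letters, 3.44% the interferon factor letters and 13.6% TATAAA. The windows differed in base composition: Icosl had 68.0% G and C with 26 CpG, Cd274 52.7% with 15, Cd80 49.7% with 3 and Pdcd1lg2 46.0% with 3, against medians of 52.7% and 7 over all promoters. The start used for Cd80 lies within the longer GENCODE gene model. A match to letters is a description of the window, and so is its absence.

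The abundance of the ligand genes spanned more than 2 orders of magnitude, and the differences between libraries lay in the middle of that range. Cd48 had the highest level, at 84.3 FPKM after anti-CD40 and 77.9 after IgG, followed by Vsir with 60.7 and 57.4 and Cd83 with 43.6 and 44.9. These 3 genes made up 88.8% of the summed FPKM of the 10 ligands with anti-CD40 and 91.9% with IgG. The other 7 genes summed to 23.7 FPKM with anti-CD40 and 15.9 with IgG. Cd274 stood next, at 12.1 and 8.42 FPKM. Tnfsf9 (5.11 and 2.69) and Icosl (3.54 and 2.24) occupied overlapping ranges across the libraries, as did Cd80 (1.69 and 0.862) and Cd86 (0.649 and 0.989). Cd276 (0.390 and 0.442) and Pdcd1lg2 (0.233 and 0.270) came last. Apart from those overlapping pairs, the values of neighbouring genes in this order did not overlap between libraries, although 1 library per group gives no measure of the spread between cultures. These are RNA levels of a bulk culture, in which fewer cells of a type and less RNA per cell cannot be told apart.

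**Figure D1:**
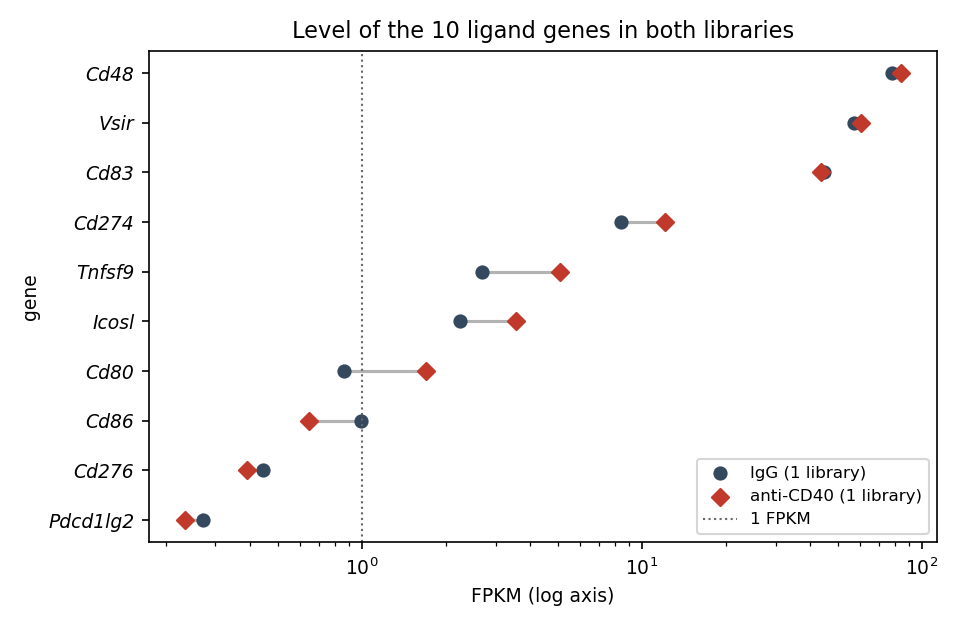
Deposited FPKM (log axis) of each ligand gene in the IgG library (circles) and the anti-CD40 library (diamonds), ordered by the mean of both; a grey line joins the 2 values and the dotted line marks 1 FPKM. Cd48, Vsir and Cd83 sit between 43.6 and 84.3 FPKM with nearly coinciding symbols, whereas Tnfsf9, Icosl, Cd274 and Cd80 have the anti-CD40 value to the right, and Cd80 and Cd86 change order.

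Of the 10 genes, 4 lay above the median ratio of all genes: Tnfsf9, Cd80, Icosl and Cd274. Their log2 ratios of FPKM + 1 were 0.73, 0.53, 0.49 and 0.47, higher than those of 98.9%, 96.2%, 94.5% and 93.8% of counted genes. The rank of Cd80 is no support for a difference, because Cd80 was counted only through its anti-CD40 value. These 4 genes stayed higher under each scaling tried, at 0.60, 0.41, 0.36 and 0.35 after centring on the median. That is no separate support, because the scalings moved all genes by less than these ratios. A pseudocount cannot change the direction of a ratio. The other 6 members lay below the median of all genes, with Cd48 at 0.11, Vsir at 0.08, Cd83 at -0.04, Pdcd1lg2 at -0.04, Cd276 at -0.05 and Cd86 at -0.27. The median over all 10 members was 0.10, beside 0.12 over all counted genes, and it lies between the 4 higher genes and the 6 others.

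Only Tnfsf9, of 10 members, was at least 1.5-fold higher on the log2(FPKM + 1) scale, a mark passed by 2.68% of counted genes, and none was 1.5-fold lower, as 2.15% of counted genes were. At 2-fold there was no member in either direction, against 0.25% of counted genes higher and 0.313% lower. On plain FPKM ratios, Cd80, Tnfsf9 and Icosl passed 1.5-fold higher, against 5.89% of counted genes above 0 in both libraries. On that scale 3.63% of genes were 1.5-fold lower, and no counted member was. Cd86 was 1.52-fold lower but not counted, as its IgG value of 0.989 FPKM just missed the filter. The count in each direction thus depends on the filter. Cd80, Cd86, Cd276 and Pdcd1lg2 lay below 1 FPKM with IgG. Cd80 was counted only through its anti-CD40 value, and Cd86, Cd276 and Pdcd1lg2 were below 1 FPKM in both libraries and not counted.

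**Figure D2:**
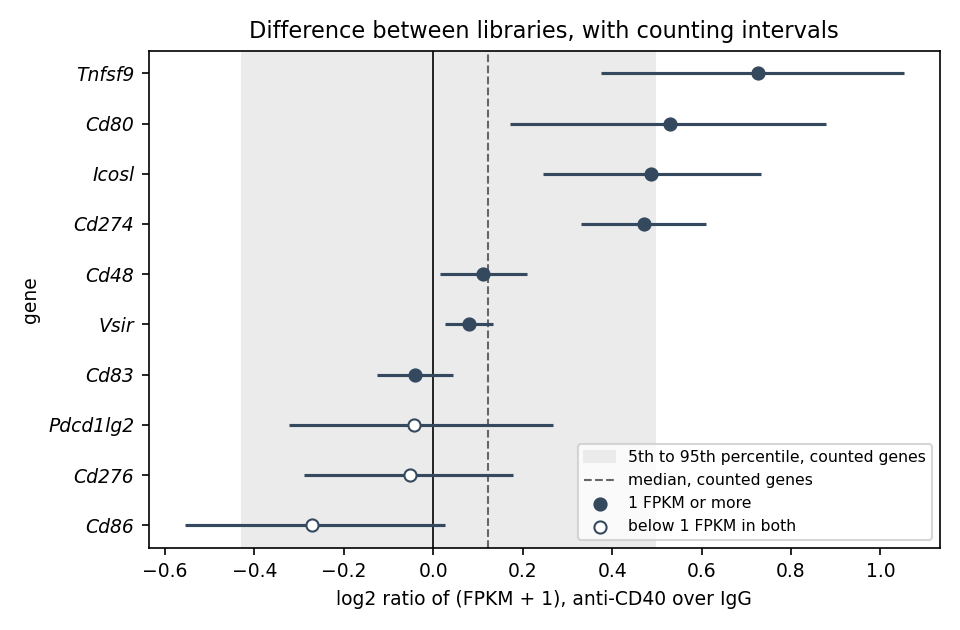
Log2 ratio of (FPKM + 1), anti-CD40 over IgG, for each ligand gene, with lines for the 95% counting interval; open circles are genes below 1 FPKM in both libraries, the dashed line is the median of counted genes (0.12) and the grey band runs from their 5th to their 95th percentile. Tnfsf9 at 0.73 and Cd80 at 0.53 lie to the right of the band, Icosl and Cd274 at its right edge, and the other 6 genes within it.

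The ligands of CD28 and CTLA-4 were both near the lower limit of counting, with Cd80 at a higher value and Cd86 at a lower value in the anti-CD40 library. Cd80 (chromosome 16, 38455561 to 38496335, plus strand, GRCm38) stood at 1.69 FPKM in the anti-CD40 library against 0.862 in the IgG library, from about 59 and 27 fragments. Its FPKM ratio was 1.96, with an interval from 1.23 to 3.25. The lower bound of that interval was 0.955 when the shortest annotated Cd80 transcript was assumed. Cd86 (chromosome 16, 36603869 to 36666081, minus strand) stood at 0.649 and 0.989 FPKM, about 34 and 47 fragments. It was 1.52-fold lower with anti-CD40, with an interval from 0.962-fold to 2.45-fold lower, so a difference was not detectable at this depth. Cd80 stood at 2.61 times the Cd86 level with anti-CD40 and at 0.872 times with IgG. The ratio of these ratios was 2.99, with a 95% exact conditional interval from 1.53 to 5.99 for counting error. This contrast was singled out after the values were seen, and it was the largest of 3 pairs computed. The coding genes on either side of Cd80, Adprh (55.9 and 62.7 FPKM) and Timmdc1 (11.3 and 14.0 FPKM), were both lower with anti-CD40, whereas Casr and Ildr1, which flank Cd86, were listed at 0 in both libraries. The summed level of Cd80 and Cd86 was 2.34 FPKM with anti-CD40 and 1.85 with IgG, so the CD28 ligands together remained low in either library.

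The spread of ratios over all counted genes differed with level. Among 1672 counted genes with a mean of 0.5 to 2 FPKM, 12.1% had an FPKM ratio of at least 1.5-fold higher and 6.52% at least 1.5-fold lower. The corresponding shares were 6.69% and 2.68% of 2272 genes between 2 and 5 FPKM, where Icosl and Tnfsf9 lie. They were 4.11% and 1.99% of 3161 genes between 5 and 20 FPKM, where Cd274 lies. Between 20 and 100 FPKM, the range of Vsir, Cd83 and Cd48, they were 3.39% and 3.23% of 1827 genes. Above that, where no member lies, 2.90% of 656 genes were higher and 8.54% lower. The 95th percentile of the ratio was 1.55 in the range of Tnfsf9 (1.90) and Icosl (1.58), and 1.47 in that of Cd274 (1.43). It was 1.79 in the range of Cd80 (1.96), but Cd80 entered that range only through its anti-CD40 value and Cd86 just missed it, so the standing of Cd80 there is no support for a difference.

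Icosl, the gene of the ICOS ligand (chromosome 10, 78069302 to 78083913, plus strand), stood at 3.54 FPKM after anti-CD40 and 2.24 after IgG, from about 205 and 117 fragments. The FPKM ratio was 1.58 with an interval from 1.26 to 2.01. Its annotated neighbour Dnmt3l, a DNA methyltransferase cofactor 5679 bases away on the same strand, was at 0.331 and 0.373 FPKM. Both values are low and no interval was computed for them, so whether Dnmt3l shared the Icosl difference was not tested.

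The PD-1 ligands lie side by side on chromosome 19 and had very different levels. Cd274, the gene of PD-L1 (29367455 to 29388095, plus strand), stood at 12.1 FPKM after anti-CD40 and 8.42 after IgG, from about 896 and 567 fragments. Its ratio of 1.43 had an interval from 1.29 to 1.59, the narrowest among the 4 higher genes. Pdcd1lg2, the gene of PD-L2 (29410919 to 29471161, plus strand), begins 22823 bases beyond the end of Cd274. It had 0.233 and 0.270 FPKM, about 8 fragments in each library, and its ratio of 0.863 had an interval from 0.296 to 2.77. A difference in Pdcd1lg2 was not detectable at this depth. Cd274 stood at 51.7 times the Pdcd1lg2 level with anti-CD40 and 31.2 times with IgG. The ratio of these ratios, 1.66, had an interval from 0.514 to 4.86, so the libraries were not shown to differ in it.

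The gene next to Cd274 on its other side, Plgrkt, a plasminogen receptor gene on the opposite strand, begins 64 bases away and had 25.7 and 24.2 FPKM, a ratio of 1.07. Ric1, beyond Pdcd1lg2, had 1.11 and 0.798 FPKM. Cd274 thus differed more between the libraries than Plgrkt, whose start it adjoins. PD-L1 also binds CD80 on the same cell. Cd274 stood at 7.13 times the Cd80 level with anti-CD40 and 9.77 times with IgG, and the ratio of ratios of 0.730 had an interval from 0.435 to 1.17.

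The remaining B7 family members did not stand out. Vsir, the gene of VISTA (chromosome 10, 60346851 to 60372684, plus strand), had 60.7 and 57.4 FPKM, and its ratio of 1.06 had an interval from 1.02 to 1.10. That is under the median ratio of all genes, and Vsir turns slightly lower (-0.04 and -0.01 on the log2 scale) after centring on the median or upper-quartile scaling. Vsir lies inside the Cdh23 gene on the opposite strand, with no exon in common, and Cdh23 was at 0.0361 and 0.0807 FPKM. Cd276 (chromosome 9, 58524298 to 58555437, minus strand) had 0.390 and 0.442 FPKM, about 27 and 28 fragments. Its ratio of 0.883 had an interval from 0.495 to 1.54. Exons of Gm10657, a gene on the opposite strand with no deposited value under that name, overlap those of Cd276.

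Tnfsf9, the gene of the 4-1BB ligand (chromosome 17, 57105325 to 57107757, plus strand), had the highest log2 ratio among the 10 genes. It stood at 5.11 FPKM after anti-CD40 and 2.69 after IgG, from about 135 and 65 fragments, and the FPKM ratio of 1.90 had an interval from 1.39 to 2.57. Exons of Gm11110, a long non-coding RNA gene on the opposite strand, overlap those of Tnfsf9. The strand setting of the counting is not given in the sources used here, so reads of the 2 genes may not be told apart. Gm11110 had 1.62 and 1.67 FPKM, and the part of shared reads in the Tnfsf9 values was not tested. Cd70, the next coding gene on the right and a ligand of the same superfamily, was listed at 0 in both libraries. By distance in log2(FPKM + 1) over the 2 libraries, the genes nearest to Tnfsf9 were Plekhg3 (5.25 and 2.66 FPKM), Socs3 (5.13 and 2.81) and Ubr7 (4.96 and 2.78). With 2 libraries, such likeness means only a similar pair of levels.

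Cd83 and Cd48 were abundant and nearly equal in the libraries. Cd83 (chromosome 13, 43784775 to 43803132, plus strand) stood at 43.6 FPKM after anti-CD40 and 44.9 after IgG, from about 2216 and 2066 fragments. The ratio of 0.971 had an interval from 0.914 to 1.03, which lies under the 1.11 of the median gene. Cd83 is at 0.01 on the log2 scale when both libraries are rescaled to the mean of their sums, so its direction depends on the scaling. Cd83 had the lowest log2 ratio among members at 1 FPKM or more, and the genes nearest to it in level were Smarcd2, Mrpl30 and Pfdn2, all within 0.03 on the log2 scale. Cd48 (chromosome 1, 171682009 to 171705258, plus strand) had 84.3 and 77.9 FPKM, and its ratio of 1.08 had an interval from 1.01 to 1.16. Its log2 ratio of 0.11 turns to -0.01 after centring on the median.

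**Figure D3:**
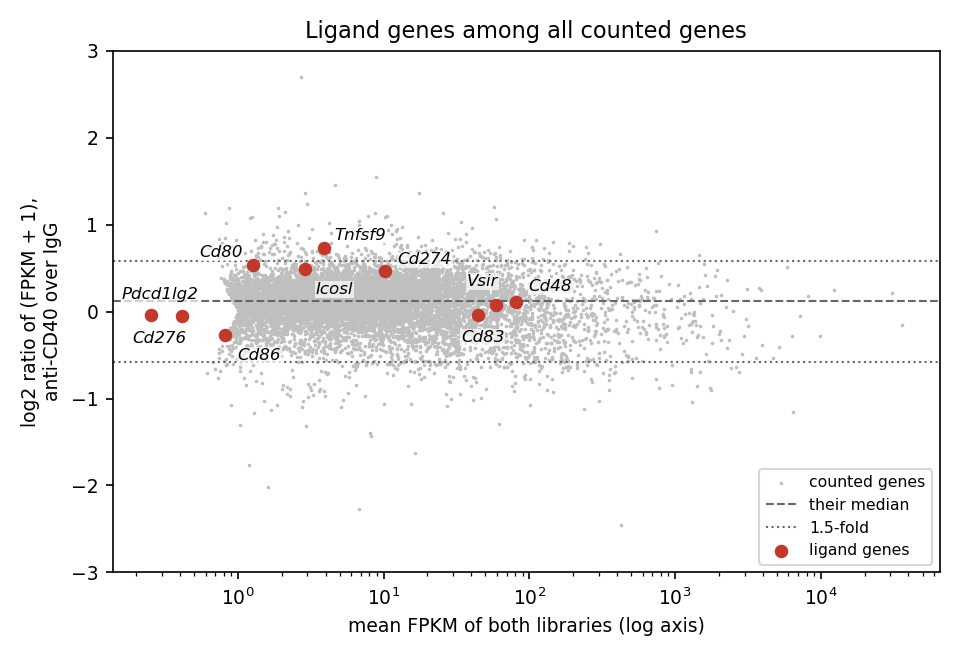
Log2 ratio of (FPKM + 1), anti-CD40 over IgG, against the mean FPKM of both libraries (log axis), for counted genes (grey) and the 10 ligand genes (red); the dashed line is the median of counted genes, dotted lines mark 1.5-fold, and 1 counted gene lies outside the vertical axis. Tnfsf9 is the ligand gene beyond the upper dotted line; Cd48, Vsir and Cd83 lie near or just below the dashed line.

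Related genes were followed in 8 lists with 76 measured genes, of which 45 reached 1 FPKM. Of these 45, 3 were at least 1.5-fold higher (6.67%) and 0 were 1.5-fold lower, against 2.68% and 2.15% of all counted genes, and their median log2 ratio was 0.16. The lists were chosen with earlier results of these data known, so these shares are a description and no support for a difference. After centring on the median of all genes 1 of the 3 stayed past 1.5-fold, Junb at 0.68 on the log2 scale, with Irf1 at 0.58 and Fos at 0.56 just under it. All 3 belonged to the list of transcription factors known to act on ligand genes. In that list 13 of 13 genes were counted, 11 lay above the median of all genes and the list median was 0.25. Junb, an AP-1 subunit, stood at 186 FPKM after anti-CD40 and 106 after IgG. Fos, its partner, had 169 and 105, and Irf1, an interferon-induced factor, had 21.2 and 12.6. Rela, the NF-kB subunit p65 and the next most abundant gene of the list, had 54.8 and 49.5 FPKM, a ratio close to the median of all genes. The other NF-kB genes of the list, added after their values were seen, had FPKM ratios of 1.40 (Nfkb1), 1.25 (Rel), 1.12 (Relb) and 1.02 (Nfkb2).

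Other B7 and butyrophilin genes were near absent: none of 7 reached 1 FPKM, and all but Btnl2 (0.0439 FPKM with anti-CD40) were listed at 0 in both libraries. An exact 0 may be a failed estimate. Of 8 tumour necrosis factor superfamily costimulators, 2 were counted and neither was 1.5-fold apart. Tnfrsf14, the receptor HVEM that also binds BTLA, had 12.4 and 10.1 FPKM, and Cd40 itself had 3.01 and 2.67. Among 8 measured SLAM family genes, 5 were counted and none was 1.5-fold apart, with a median of 0.16. Cd84 had 141.9 and 127 FPKM, Ly9 113 and 81.2, and Slamf7, which neighbours Cd48, 40.4 and 36.2. The other 3, Slamf1, Slamf6 and Cd244a, were below 1 FPKM in both libraries. The FPKM ratio of Ly9 was 1.40, beside the 1.08 of Cd48.

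The list of other checkpoint ligands had 9 of 12 genes counted and a median of 0.24, with none 1.5-fold apart on the log2(FPKM + 1) scale. Lgals3, the gene of galectin-3, had 4147 and 3431 FPKM, Selplg, the gene of PSGL-1, 43.9 and 37.2, and Cd47, the ligand of SIRP alpha, 20.5 and 17.2. Of 5 adhesion ligands 3 were counted, with a median of -0.01: Icam1 had 45.8 and 46.2 FPKM, Alcam 17.2 and 17.1, and Icam2 2.87 and 3.68. All 10 measured genes of ligand stability and trafficking were counted, none 1.5-fold apart on the log2(FPKM + 1) scale, with a median of 0.15. Marchf8, a ubiquitin ligase with 5.04 and 3.35 FPKM, passed 1.5-fold on the plain FPKM ratio, at 0.59 as a log2 value. Stub1, a ubiquitin ligase, had 118 and 111 FPKM, Cdk5 26.5 and 29.2, and Spop 24.5 and 18.4. Cmtm6, which keeps PD-L1 on the cell surface, had 10.4 and 7.98 FPKM, a ratio of 1.30 beside the 1.43 of Cd274; it was named after its values were seen.

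**Figure D4:**
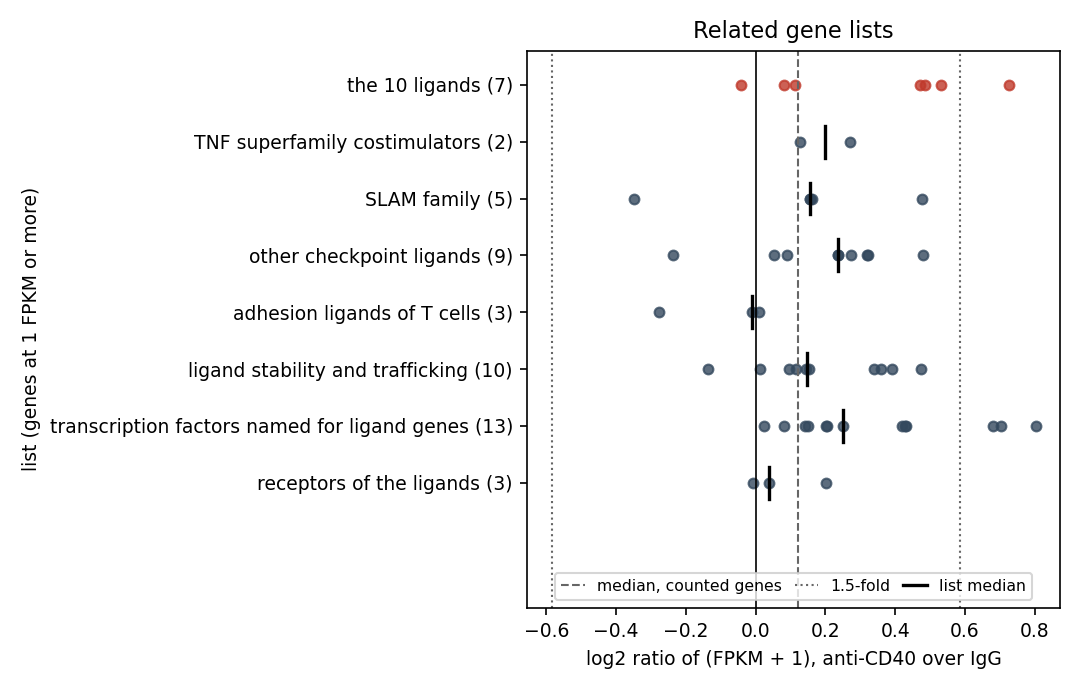
Log2 ratio of (FPKM + 1), anti-CD40 over IgG, of every gene at 1 FPKM or more in the ligand list (red) and in 7 related lists (blue), with the number of genes in brackets; black bars are list medians, the dashed line is the median of counted genes and dotted lines mark 1.5-fold. The ligand genes form a group of 3 near the dashed line and 4 at 0.47 or more, and the blue points past 1.5-fold are Fos, Irf1 and Junb.

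The labelled cell type was checked against marker genes. All 8 macrophage markers were counted, none was 1.5-fold apart, and Lyz2, the gene of lysozyme, reached 13423 and 11326 FPKM. Dendritic cells are the cell type best known for Cd80, Cd83 and Cd86. Of 10 dendritic cell markers 2 were counted, Itgax (16.6 and 18.9 FPKM) and Batf3 (8.88 and 14.1), and the list summed to 26.4 and 33.6 FPKM. Its defining genes were low: Flt3 was listed at 0 in both libraries, Zbtb46 had 0.0455 and 0.0126 FPKM, and Ccr7 had 0.0182 and 0. Itgax and Batf3, which carry the sum, were lower with anti-CD40, whereas 6 of the other 8 had higher values there, none above 0.473 FPKM. Marker sums of T cells (4.28 and 3.51 FPKM, mostly Cd4, with Cd3e, Cd3d, Cd3g and Cd8a listed at 0), B cells (1.23 and 0.978) and NK cells (0.273 and 0.202) were low. Neutrophil markers were also low (1.90 and 1.24, mostly S100a8, with Ly6g, S100a9 and Mpo listed at 0). Fibroblast markers summed to 1.18 and 0.504 FPKM and were higher with anti-CD40 in 4 of 4 genes, in the direction of the 4 higher ligands. All 4 were below 1 FPKM, and most counted genes also lay slightly higher there (median FPKM ratio 1.11). Among the 4 markers Col1a1, a collagen gene, had 0.406 and 0.0319 FPKM, a ratio of 12.7 with an interval from 4.07 to 42.3. Col1a2 had 0.513 and 0.271, a ratio of 1.89 with an interval from 1.17 to 3.09. The intervals of Pdgfra (0.506 to 214) and Dcn (0.367 to 4.22) included 1. Mast cell and basophil markers summed to 0.0484 and 0.0899 FPKM. The part of such cells in the ligand values was not tested.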

How the data were processed

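The 2 libraries were sequenced after 24 h, 1 with anti-CD40 and 1 with IgG. Per the labels' protocols, RNA was extracted with TRIzol and 1.3 ug entered a TruSeq RNA preparation. The submitters' processing notes name HISAT2 2.1.0, StringTie and mm10. For annotation, strand setting and filters, nothing is given in the sources used here. Per gene and library, the authors deposited 1 value, read as FPKM because StringTie is named and the column sums differ (529104 and 547362), since the header names no unit. Each of the 34714 symbols was found among RefSeq genes of assembly GRCm38.p6, and 0 sample columns were left unused.

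Depth was sought in FPKM times the annotated gene span in kilobases, over genes with a low product (1633 for anti-CD40 and 1425 for IgG). For a gene without introns this product should be a whole multiple of a step, but genes were not filtered for introns. The best-scoring steps were 0.0243 (anti-CD40) and 0.0269 (IgG). The step and its double held 14 and 11 genes within 0.1%, against at most 9 at any other step. Taken as a read of 150 bases, the steps give 20.5 and 18.6 fragments per FPKM and kilobase; intervals rest on this and on the median GENCODE M21 basic transcript length, which 97.2% of counted genes had.

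Log2 ratios used a pseudocount of 1 FPKM and counts a filter of 1 FPKM in either library. With 1 library per group there is no test. The script's count and interval were tested on simulated data. Members and lists were chosen with earlier results of these data known. Named genes were the members, Cd40, overlapping and nearest coding genes, the 3 most abundant members of each list and those past 1.5-fold, and the 3 genes nearest in level to the members with the highest and lowest ratio among those at 1 FPKM or more; neighbours that add nothing are left out and others are marked in the text. Alternatives were other pseudocounts, scalings, filters and transcript lengths. Python 3.11.15, numpy 2.4.6, pandas 2.3.3 and scipy 1.17.1 were used.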

Additional observations from a re-analysis of the deposited data

How the results depend on the processing

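No replicate could be left out and no paired analysis was possible because each group holds 1 library. Of the 10 ligand genes, 1 was at least 1.5-fold higher; the number was 3 with a pseudocount of 0.1 FPKM or with plain FPKM ratios (added after the data had been seen) and 0 with a pseudocount of 5 FPKM, whose construction shrinks low genes. Some log2 ratios lay outside the counting interval of the log2(FPKM + 1) scale, a comparison across unlike scales. For Cd80 they were 0.90 at a pseudocount of 0.1 FPKM and 0.97 as a plain ratio. For Cd86 it was -0.61 as a plain ratio, and for Icosl 0.24 at 5 FPKM. The plain ratios of Cd80 and Cd86 lay inside the counting intervals of those plain ratios. Centring on the median gave -0.010 for Cd48, -0.16 for Cd83, -0.042 for Vsir and -0.026 for the median of the 10 genes. Upper-quartile scaling gave -0.13 for Cd83, -0.012 for Vsir and 0.0038 for that median.

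Among all genes counted, 257 exceeded 1.5-fold with anti-CD40 and 206 with IgG. These numbers were 508 and 329 at a pseudocount of 0.1 FPKM, 81 and 102 at 5 FPKM, 118 and 406 after centring, 166 and 333 after upper-quartile scaling and 565 and 348 as plain ratios. At 2-fold, 24 were higher and 30 lower; the numbers were 88 and 75 at 0.1 FPKM, 4 and 10 at 5 FPKM, 13 and 54 after centring, 14 and 19 with a filter of 5 FPKM and 97 and 81 as plain ratios. Assuming the shortest transcript, the interval bound nearest 1 went from 1.23 to 0.955 for Cd80 and from 1.02 to 0.921 for Vsir.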

Other observations

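Genes of receptors for these ligands, or for ligands of the related lists, were mostly below 1 FPKM. Of 14 such genes 3 were counted, beside 9591 of all 34714 genes. Cd28, best known from T cells, was the most abundant, at 7.30 FPKM after anti-CD40 and 7.34 after IgG, although the T cell genes Cd3e, Cd3d and Cd3g were listed at 0 in both libraries. Havcr2, the gene of TIM-3, had 2.74 and 2.64 FPKM, and Rgmb, a binding partner of PD-L2, had 2.37 and 1.94. Ctla4 (0.0192 and 0) and Tnfrsf9, the receptor of the 4-1BB ligand (0.0431 and 0.0191), were near 0, and Pdcd1 was listed at 0 in both.

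The following genes were picked with their values known. Jarid2, the coding gene that follows Cd83 after a gap of 926341 bases, stood at 1.53 FPKM after anti-CD40 and 0.545 after IgG, a ratio of 2.81, while Cd83 was nearly equal. Tnfsf14, the ligand of HVEM, had 0.844 and 0.459 FPKM, a ratio of 1.84 with a counting interval from 0.965 to 3.53. Ceacam1, a ligand of TIM-3, had 2.52 and 1.52 FPKM, a ratio of 1.66 with an interval from 1.13 to 2.47. Slamf9 was the counted SLAM family gene with a lower value after anti-CD40, at 22.7 and 29.2 FPKM, and Lgals9, the gene of galectin-9, had 13.5 and 16.1. The dendritic cell factor Batf3 was 1.59-fold lower with anti-CD40.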
